A study of Mus musculus with 10 samples.

Results

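The interferon response genes are 41 genes that type I or type II interferons are known to raise in most cell types. The members were chosen by name, with earlier results of these data known, and all 41 were found among the 48526 gene identifiers of the deposited table. RNA was sequenced from microdissected dentate gyrus, the hippocampal region of the granule neurons, taken from 10 C57Bl/6 mice 8 weeks old. Adeno-associated virus of serotype 9 (AAV9) had carried Sox11, a transcription factor of newborn neurons, into the gyrus of both sides in 5 of them. In the 5 control mice AAV9 had carried green fluorescent protein (GFP). Both groups therefore received a virus and an injection, and no uninjected mice were analysed here. The sources used here do not give the promoter of the constructs, the share of cells transduced or the time from injection to dissection. Library names follow the columns of the deposited table: GFP 1, 3, 4, 5 and 6, then Sox11 1, 2, 3, 6 and 7.

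Interferons are secreted when a cell senses foreign or misplaced nucleic acid, or, for interferon gamma, when T cells and natural killer cells are activated. Type I interferons bind Ifnar1 and Ifnar2, and the kinases Jak1 and Tyk2 then phosphorylate STAT proteins such as Stat2, which binds Irf9 to switch on genes that carry an interferon-stimulated response element. Interferon gamma acts through Ifngr1 and Ifngr2, and its target genes carry gamma-activated sites. The induced genes block viral entry and replication, tag proteins with Isg15, attack intracellular parasites and recruit leukocytes, and in the brain microglia, astrocytes, endothelium and neurons can all respond.

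The promoters of 4 of the genes that rose are shown because they hold, close to the start of the gene, the element through which this response is known to work. The sequences are from RefSeq on GRCm38.p6, read 5′ to 3′ on the strand of the gene, and capitals mark matches to GAAANNGAAA or its reverse complement TTTCNNTTTC, which can overlap each other. Cxcl10 is shown at chr5:92348890-92349139 (minus strand), Isg15 at chr4:156200819-156200936 (minus), Gbp3 at chr3:142559959-142560025 (plus) and Oas1a at chr5:120907526-120907585 (minus).
Cxcl10: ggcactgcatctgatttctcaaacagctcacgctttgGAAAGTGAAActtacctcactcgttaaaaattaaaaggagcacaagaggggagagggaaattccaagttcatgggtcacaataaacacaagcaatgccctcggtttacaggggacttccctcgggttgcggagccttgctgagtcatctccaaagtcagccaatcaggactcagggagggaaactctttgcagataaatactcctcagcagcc
Isg15: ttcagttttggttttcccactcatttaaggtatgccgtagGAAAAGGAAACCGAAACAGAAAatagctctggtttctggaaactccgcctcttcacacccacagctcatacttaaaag
Gbp3: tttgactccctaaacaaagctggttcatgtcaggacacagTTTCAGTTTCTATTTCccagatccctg
Oas1a: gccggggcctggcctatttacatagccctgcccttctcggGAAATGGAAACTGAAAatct

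Isg15 held 3 overlapping matches, Gbp3 and Oas1a 2 overlapping matches each, and Cxcl10 1 match 213 bases before the start. RefSeq promoter windows, of 250 bases before and 50 bases after the start, were found for 29 of the 41 members. A match on either strand lay in the window of 16 of these 29 members (55.2%), against 3.99% of all 27025 genes with a window. Among members with a window, it was present in 5 of the 8 that rose with Sox11 and in 10 of the 19 that did not pass the test. The gamma-activated site TTCNNNGAA, which reads the same on both strands, lay in the windows of 7 members (24.1%) against 9.55% of all genes. These are letters in a window, and no binding was measured.

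Libraries differed before any comparison of the groups. Between 45100154 and 68769808 reads per library were assigned to genes. GFP 3 stood apart by choroid plexus genes: the summed level of 19 choroid plexus and ependymal markers was 401202 normalized counts there and 1246 to 4406 in the other 9 libraries, and transthyretin, Ttr, was 345861 against 34.9 to 1312. Meningeal and fibroblast markers (13 genes) summed to 27983 to 52865 normalized counts in GFP 1, GFP 3, Sox11 2 and Sox11 3 and to 8328 to 13550 in the others. The Sox11 transcript averaged 1429 normalized counts in controls (SD 115) and 12559 with the Sox11 virus (SD 4449), 5 libraries each, with no overlap (two-sided exact permutation p = 0.00794, the smallest that 252 assignments allow). Means of members are given below as mean ± SD over the 5 libraries of a group. Unless another tool or filter is named, tests below are limma fits over 17007 genes with Benjamini-Hochberg adjustment, and the log2 fold change is the Sox11 minus the GFP mean of log2(normalized count + 1), a scale that understates changes of low genes.

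Of the 40 members that could be tested, 10 rose with Sox11 at an adjusted p below 0.05, 1 fell and 29 did not pass. Among all tested genes 9.65% rose and 9.36% fell. Because the members and the further lists were chosen with earlier results of these data known, such shares are set side by side as a description only. The genes that rose were Mx1, Oasl2, Oas1a, Irf7, Irf9, Isg15, Gbp3, Iigp1, Irgm1 and Cxcl10, and the gene that fell was Cmpk2. The median log2 fold change was 0.71 over the 40 members and -0.01 over all tested genes, and 35 of the 40 had a higher mean in the Sox11 group. In 3 members (Irf9, Iigp1 and Cxcl10) each Sox11 library lay above each GFP library, against 8.63% of all tested genes, and in Cmpk2 each lay below, against 7.29%. Oas3 was under the minimum mean of 10 normalized counts and was not tested. Mx1 and Zbp1 reached that minimum only through the Sox11 libraries, so any call of these 2 genes counts accordingly less. Without the minimum, 7 of 41 members rose, against 4.73% of 28745 genes, Cmpk2 fell, against 4.39%, and Gbp3, Irf7 and Irgm1 lost the call. In a tissue sample, a change in the number of cells of a type and a change in RNA per cell cannot be told apart.

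**Figure D1:**
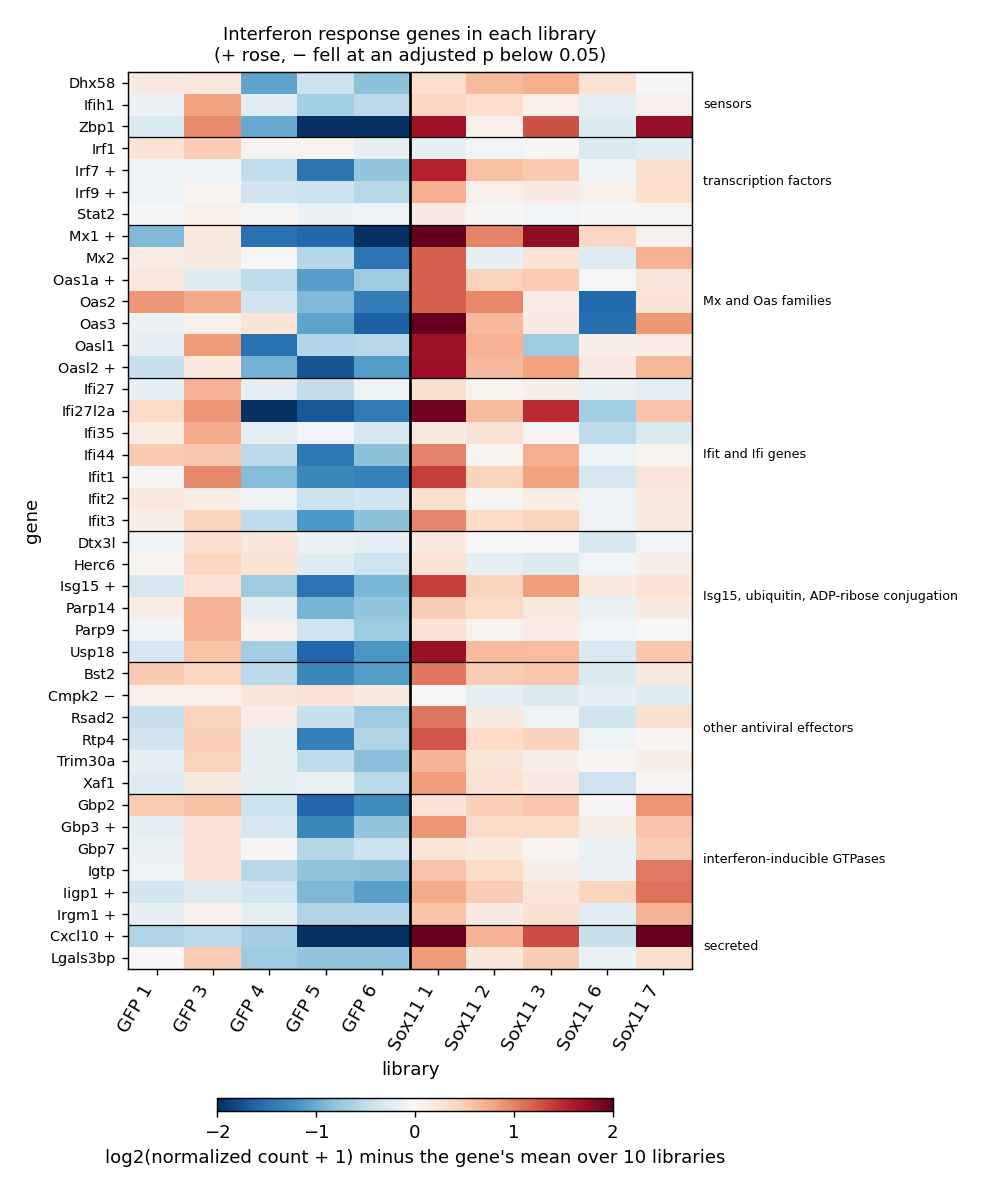
Level of the 41 members (rows, grouped by role) in each of the 10 libraries (columns), as log2(normalized count + 1) minus the mean of the gene over the libraries, with colours ending at 2 in either direction. Sox11 1 is the reddest column, GFP 5 and GFP 6 are the bluest, and GFP 3 is red for most members although it is a control library.

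The 4 transcription factors of the list did not move together. Irf9, the DNA-binding part of a complex with Stat2 (ENSMUSG00000002325, chromosome 14, 55603571 to 55610030, plus strand, GRCm38), was at 529, 582, 432, 415 and 380 normalized counts in GFP 1, 3, 4, 5 and 6, and at 919, 605, 627, 602 and 704 in Sox11 1, 2, 3, 6 and 7. Each Sox11 library was thus above the highest control, GFP 3, though Sox11 6 exceeded it narrowly. Its group means were 467 ± 84.3 and 691 ± 134, and it rose by 0.56 on the log2 scale (SE 0.14, adjusted p = 0.0189). Irf7, which amplifies the type I response (ENSMUSG00000025498, chromosome 7, 141262706 to 141266481, minus strand), was at 141, 139, 104, 52.9 and 86.2 in the same GFP libraries and at 435, 222, 213, 140 and 182 in the Sox11 libraries. Sox11 1 stood above the other Sox11 libraries, and Sox11 6 lay at the level of GFP 1 and GFP 3. Its log2 fold change was 1.15 (SE 0.33, adjusted p = 0.0343), and the call ended on leaving out any one of GFP 4, 5 and 6 and Sox11 1, 2 and 3 (adjusted p up to 0.0743).

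Stat2, the partner of Irf9, ranged from 1179 to 1368 normalized counts in the GFP libraries (median 1245) and from 1234 to 1424 in the Sox11 libraries (median 1297). The groups overlapped almost wholly, and the log2 fold change of 0.05 (SE 0.06) did not pass (adjusted p = 0.649). Irf1, a factor induced above all by interferon gamma, was at 584, 682, 506, 509 and 433 in GFP 1, 3, 4, 5 and 6 and at 422, 468, 494, 395 and 418 in Sox11 1, 2, 3, 6 and 7. Only GFP 6 among the controls lay within the range of the Sox11 group, whose mean was the lower one. The log2 fold change was -0.29 (SE 0.12, adjusted p = 0.104). Without GFP 6 Irf1 fell (adjusted p = 0.0409), and it also fell when the range of the column numbers, 1 to 3 or 4 to 7, was a covariate (adjusted p = 0.0121).

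The Mx and Oas families gave 3 of 6 tested members that rose and none that fell, against 9.65% and 9.36% of all tested genes. Mx1, a gene of the Mx GTPase family (ENSMUSG00000000386, chromosome 16, 97447035 to 97462907, minus strand), was near the limit of detection in controls. It was at 3.87, 9.21, 2.20, 2.03 and 1.04 normalized counts in GFP 1, 3, 4, 5 and 6, and at 53.8, 16.9, 29.7, 11 and 8.47 in Sox11 1, 2, 3, 6 and 7. These values rest on 17 reads in the 5 GFP libraries together and 141 in the 5 Sox11 libraries. GFP 3 was above Sox11 7, and otherwise the groups were apart. Mx1 rose by 2.35 on the log2 scale (SE 0.55, adjusted p = 0.0127).

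Oasl2, an oligoadenylate synthetase-like protein (ENSMUSG00000029561, chromosome 5, 114896936 to 114912234, plus strand), was at 243, 385, 170, 99.6 and 152 normalized counts in the controls, in the same order and at 1085, 521, 576, 376 and 524 in the Sox11 libraries. GFP 3 just exceeded Sox11 6, the lowest of its group. Oasl2 rose by 1.61 on the log2 scale (SE 0.37, adjusted p = 0.0145). Oas1a, whose product is an oligoadenylate synthetase that senses double-stranded RNA (ENSMUSG00000052776, chromosome 5, 120896256 to 120907521, minus strand), was at 36.7, 26.5, 22, 14.2 and 18.7 in the GFP libraries and at 72.8, 43.7, 45.6, 31.7 and 37.0 in the Sox11 libraries. Here GFP 1 rather than GFP 3 was the highest control and lay between Sox11 6 and Sox11 7. The log2 fold change of 0.95 (SE 0.28, adjusted p = 0.0356) lost its call on leaving out the same libraries as for Irf7, GFP 4, 5 and 6 and Sox11 1, 2 and 3 one at a time (adjusted p up to 0.0795). Only 31.2% of the 31-base words of Oas1a are found in no other gene, and most shared words are those of Oas1g, so its counts are uncertain. Mx2, Oasl1 and Oas2 had log2 fold changes of 0.41 to 0.79 and did not pass. Mx2 is annotated as a polymorphic pseudogene, and RNA counts do not show whether Mx1 or Mx2 yields a working protein.

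Isg15, the ubiquitin-like protein that is attached to viral and host proteins (ENSMUSG00000035692, chromosome 4, 156199424 to 156200818, minus strand), was the 1 member to rise among 6 genes of Isg15, ubiquitin or ADP-ribose conjugation, against 9.65% of all tested genes. It was at 64.7, 100.2, 49.5, 28.5 and 42.6 normalized counts in GFP 1, 3, 4, 5 and 6, and at 214, 111, 147, 93.8 and 98.4 in Sox11 1, 2, 3, 6 and 7. GFP 3 was above both Sox11 6 and Sox11 7, and the other 4 controls were below all Sox11 libraries. Isg15 rose by 1.26 on the log2 scale (SE 0.33, adjusted p = 0.0214), and it lost the call without GFP 6 or without Sox11 3 (adjusted p up to 0.0522). Isg15 had 87.2% of its words to itself.

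Usp18, the protease that removes Isg15 and dampens the receptor, was at 52.2, 99.1, 40.7, 21.3 and 29.1 normalized counts in GFP 1, 3, 4, 5 and 6 and at 222, 103, 102, 53.6 and 96.3 in the Sox11 libraries. As for Isg15, GFP 3 was the 1 control within the Sox11 range. With a difference of 1.28 on the log2 scale (SE 0.44, adjusted p = 0.0655), Usp18 did not pass with all libraries, and it did without GFP 3 (adjusted p = 0.0156). Parp9, Parp14, Dtx3l and the Isg15 ligase Herc6 had log2 fold changes between -0.08 and 0.44, and each of the 4 was highest in GFP 3. Dtx3l and Parp9 overlap on opposite strands by 682 bases, and the sources used here do not give the strand setting of the counting.

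Among the interferon-inducible GTPases, which attack the vacuoles of intracellular pathogens, 3 of 6 rose, against 9.65% of all tested genes. Iigp1 (ENSMUSG00000054072) was at 227, 248, 228, 158 and 139 normalized counts in GFP 1, 3, 4, 5 and 6, and at 496, 416, 349, 404 and 629 in Sox11 1, 2, 3, 6 and 7. The lowest Sox11 library was well above the highest control, and here Sox11 7 and not Sox11 1 was the highest. From a control mean of 199.8 ± 48.1 to a Sox11 mean of 459 ± 108, Iigp1 rose by 1.2 on the log2 scale (SE 0.19), with the lowest adjusted p of the 40 members, 0.00181.

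Gbp3, a guanylate-binding protein (ENSMUSG00000028268, chromosome 3, 142560026 to 142573209, plus strand), was at 335, 470, 305, 157 and 222 in the GFP libraries and at 707, 497, 499, 416 and 568 in the Sox11 libraries. GFP 3 was above Sox11 6, and the other controls were below the whole Sox11 group. Its log2 fold change was 0.92 (SE 0.26, adjusted p = 0.034), and the call was lost on leaving out any one of GFP 4 and 6 and Sox11 1, 2, 3 and 7 (adjusted p up to 0.0787). Irgm1, an immunity-related GTPase that also acts in autophagy (ENSMUSG00000046879, chromosome 11, 48861968 to 48871683, minus strand), was at 466, 549, 454, 342 and 345 in the GFP libraries and at 770, 580, 640, 442 and 829 in the Sox11 libraries. Sox11 6 lay below 3 of the 5 controls. Irgm1 rose by 0.59 on the log2 scale (SE 0.18, adjusted p = 0.0482), and the call held only without GFP 3 or without Sox11 6 among the 10 fits with 1 library left out (adjusted p from 0.014 to 0.105).

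Gbp2 was at 456, 484, 236, 106 and 133 normalized counts in GFP 1, 3, 4, 5 and 6, and at 382, 446, 470, 326 and 588 in Sox11 1, 2, 3, 6 and 7. The controls fell into a high pair, GFP 1 and GFP 3, inside the Sox11 range, and 3 libraries below it. The log2 fold change of 0.87 (SE 0.43, adjusted p = 0.192) did not pass. Igtp had a log2 fold change of 0.80 (adjusted p = 0.0534), the member closest to the threshold without passing it, and Gbp7 one of 0.35 (adjusted p = 0.168).

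Cxcl10, a chemokine that draws activated T cells and natural killer cells (ENSMUSG00000034855, chromosome 5, 92346638 to 92348889, minus strand), was at 18.4, 19.6, 17.6, 6.10 and 5.19 normalized counts in GFP 1, 3, 4, 5 and 6, and at 122, 46.7, 72.2, 20.7 and 164 in Sox11 1, 2, 3, 6 and 7. The controls were low and the Sox11 libraries spread widely, with Sox11 6 just above GFP 3. Its group means were 13.4 ± 7.09 and 85.1 ± 57.8, and it rose by 2.44 on the log2 scale (SE 0.57, adjusted p = 0.0138). Cxcl10 and Mx1 had the 2 largest rises. Their order depends on the fit, since Mx1 was the higher by edgeR (2.72 against 2.68), by DESeq2 (2.73 against 2.68) and in limma without GFP 3 (2.69 against 2.62). Lgals3bp, a secreted glycoprotein, had a log2 fold change of 0.72 and did not pass (adjusted p = 0.112).

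Cmpk2, a mitochondrial nucleotide kinase, went the other way (ENSMUSG00000020638, chromosome 12, 26469204 to 26479837, plus strand). It was at 1335, 1326, 1469, 1488 and 1397 normalized counts in GFP 1, 3, 4, 5 and 6, and at 1233, 1098, 1021, 1079 and 1051 in Sox11 1, 2, 3, 6 and 7. All Sox11 libraries were below all controls, and the spread within each group was small. Cmpk2 fell by 0.36 on the log2 scale (SE 0.06, adjusted p = 0.00207), and Cmpk2 fell in each of the 10 fits with 1 library left out. Its neighbour Rsad2, the antiviral enzyme viperin, starts 12751 bases away on the other strand. Rsad2 was at 42.6 to 96.7 normalized counts in controls and 53.6 to 149.6 in the Sox11 libraries, and its log2 fold change of 0.42 did not pass (SE 0.29, adjusted p = 0.363). Cmpk2 had no match to the response element in its window and Rsad2 had 1, at 120 bases before the start.

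**Figure D2:**
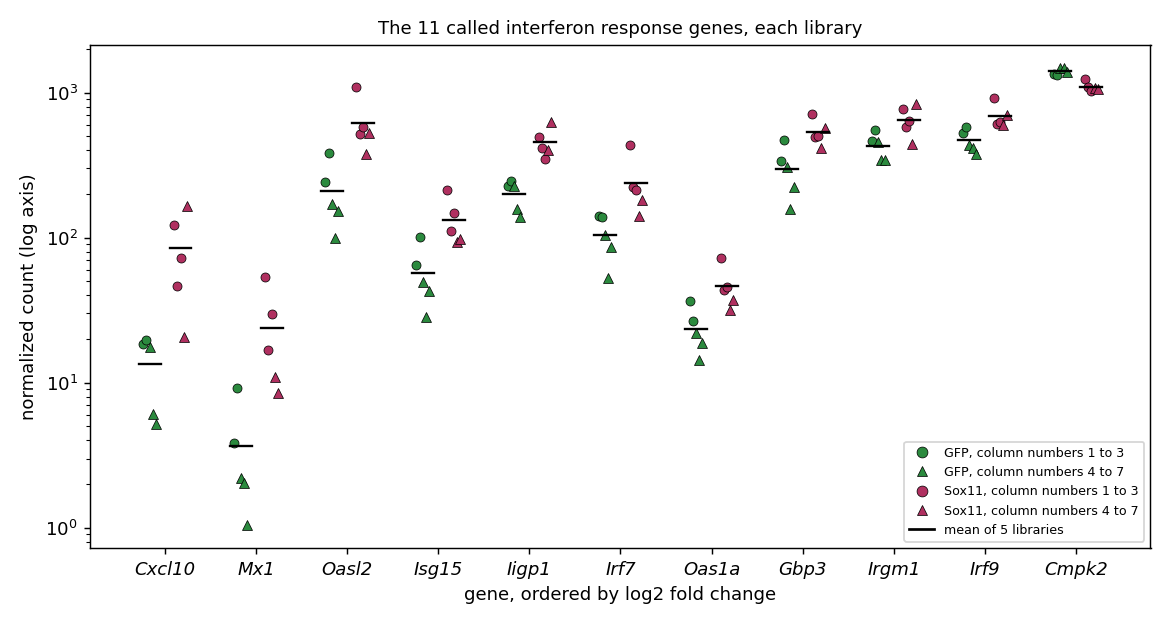
Normalized count (log axis) of the 11 members that rose or fell, in each library, with GFP in green, Sox11 in red, circles for column numbers 1 to 3, triangles for 4 to 7 and a line at the mean of 5 libraries. The groups are apart for Cxcl10, Iigp1, Irf9 and Cmpk2, and in the other 7 genes at least 1 control lies within the Sox11 range.

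No member of the Ifit and Ifi genes or of the nucleic acid sensors passed by limma, edgeR or DESeq2. By limma, 9.65% of all tested genes rose and 9.36% fell. A higher mean in the Sox11 group was found for 9 of these 10 members. Ifit3, Ifi27l2a, Dhx58 and Zbp1 were higher at an unadjusted limma p below 0.05, against 15.9% of all tested genes. Ifit1, which binds viral RNA caps, was at 194, 371, 104, 77.3 and 73.7 normalized counts in GFP 1, 3, 4, 5 and 6, and at 496, 260.1, 334, 149.8 and 224 in Sox11 1, 2, 3, 6 and 7. GFP 3 exceeded 4 of the 5 Sox11 libraries, and the log2 fold change of 1.01 (SE 0.48) did not pass (adjusted p = 0.179). Ifi27l2a, a small membrane protein, was at 41.6, 58.7, 6.60, 9.15 and 11.4 in the GFP libraries and at 124, 49.6, 91.3, 19.5 and 47.6 in the Sox11 libraries. GFP 1 and GFP 3 lay within the Sox11 range and the other controls below it, and the difference of 1.58 did not pass (SE 0.66, adjusted p = 0.13). Ifit2, Ifit3, Ifi27, Ifi35 and Ifi44 had log2 fold changes between -0.13 and 0.76. Ifit3 had only 38.2% of its words to itself, and the gene sharing most of them is Ifit3b. The counts of Ifit3, and its calls in the fits below, are therefore uncertain. Ifit3b itself, which is outside the member list, passed by edgeR and by DESeq2.

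Zbp1, a sensor of Z-form nucleic acids that can trigger cell death, was at 9.66, 24.2, 5.50, 2.03 and 2.08 normalized counts in GFP 1, 3, 4, 5 and 6 and at 41.2, 12.9, 30.4, 9.74 and 42.3 in the Sox11 libraries. GFP 3 lay above Sox11 2 and Sox11 6, and the log2 fold change of 1.81 (SE 0.63) did not pass (adjusted p = 0.0697). Dhx58, a regulator of the RNA sensors, had a log2 fold change of 0.77 (adjusted p = 0.0623). The RNA sensor Ifih1, also called MDA5, had one of 0.30 (adjusted p = 0.453). Without GFP 3, Zbp1 (adjusted p = 0.0143), Ifit1 (0.0323) and Ifi27l2a (0.0457) passed the threshold and rose. Zbp1 reached the minimum mean of 10 only through the Sox11 libraries, so its call counts accordingly less. Without that minimum, and with all libraries, Zbp1 was not called by limma (adjusted p = 0.103).

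Levels per kilobase of exon placed the 2 members with the largest rises among the least abundant. In the GFP group Ifi27 was the highest member at 926 normalized counts per kilobase, followed by Cmpk2 at 337 and Lgals3bp at 296. Cxcl10 was 36th of 41 at 5.94 and Mx1 40th at 0.970, the latter above Oas3 alone. In the Sox11 group Cxcl10 was 27th at 37.8 per kilobase, Isg15 moved from 15th to 8th at 176, and Mx1 stayed 40th at 6.33. Ifi27, the highest, had a log2 fold change of 0.08 (adjusted p = 0.848).

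The members also varied together between libraries of the same group. The median difference of the 40 members from their own mean over the libraries was -0.07, 0.43, -0.38, -0.80 and -0.79 on the log2 scale in GFP 1, 3, 4, 5 and 6, and 0.85, 0.35, 0.25, -0.11 and 0.21 in Sox11 1, 2, 3, 6 and 7. GFP 3 was thus above every Sox11 library but Sox11 1, and Sox11 6 was below GFP 1. Over all tested genes the same median lay within 0.01 of 0 in each library. The scaling of the libraries, by medians of ratios over genes, largely fixes that value in advance. Sox11 1 was the highest library for 23 members, among them Mx1, Oasl2, Irf7 and Isg15. Sox11 7 was the highest for 7, namely Cxcl10, Zbp1 and the GTPases Gbp2, Gbp7, Igtp, Iigp1 and Irgm1. GFP 3 was the highest of the 10 libraries for 8, namely Dtx3l, Herc6, Ifi27, Ifi35, Ifih1, Irf1, Parp9 and Parp14.

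**Figure D3:**
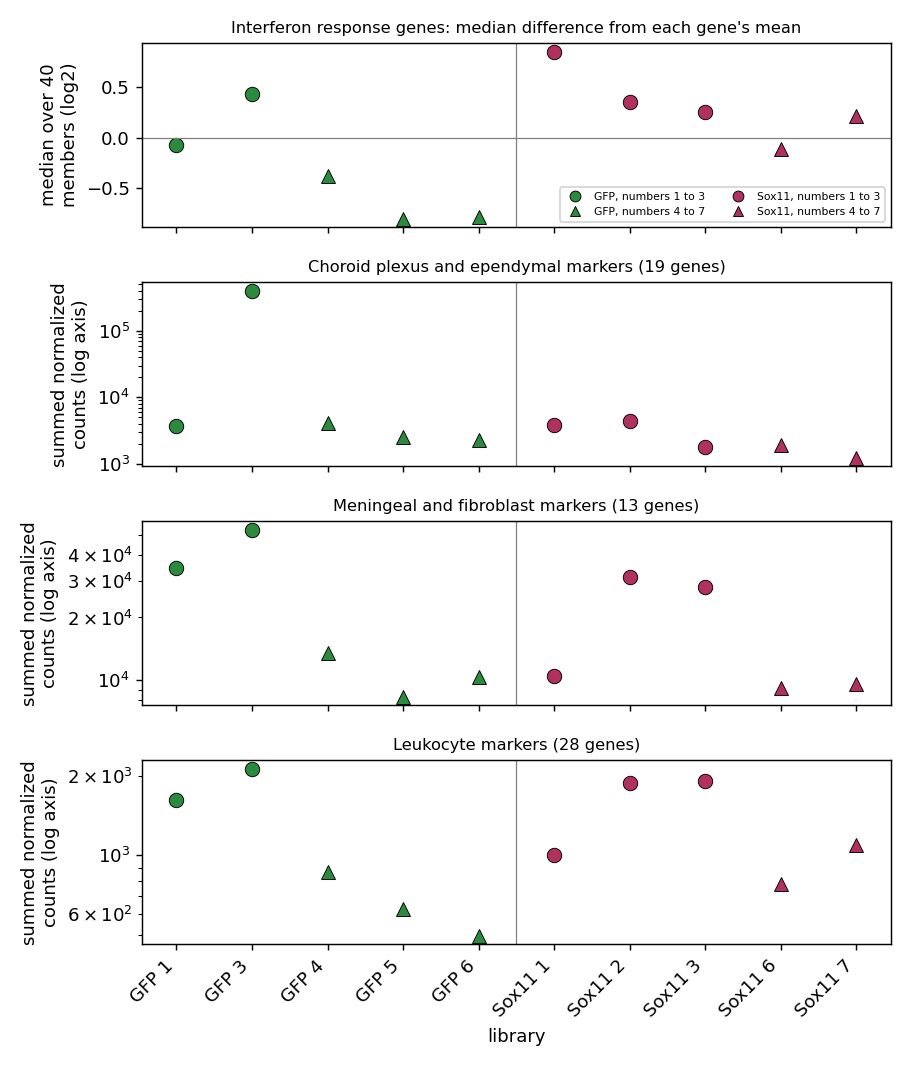
Per library, the median difference of the 40 tested members from their own mean (log2, top) and the summed normalized counts (log axis) of choroid plexus and ependymal, meningeal and fibroblast, and leukocyte markers. GFP 3 has the highest control value in the top panel (0.43) and the highest sum in each of the other panels, while Sox11 1 has the highest member median (0.85) with meningeal markers at 10493.

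Libraries numbered 1 to 3 were higher than those numbered 4 to 7, which the labels do not describe as a batch. This held for 33 of the 40 members in both groups (82.5%), against 27.6% of all tested genes. The median difference between the number ranges was 0.83 on the log2 scale among controls and 0.34 among Sox11 libraries, and GFP 1 alone was 0.67 above GFP 4 to 6. The 7 members that did not follow were Cmpk2, Cxcl10, Gbp2, Gbp7, Herc6, Igtp and Iigp1. Summed endothelial markers (14 genes) split by the number ranges in both groups, at 20056 and 24773 normalized counts in GFP 1 and GFP 3 against 13305 to 18125 in GFP 4 to 6, and at 15900 to 21061 in Sox11 1 to 3 against 15071 and 15155 in Sox11 6 and 7. Summed meningeal and fibroblast markers also split in both groups, at 34531 and 52865 in GFP 1 and GFP 3 against 8328 to 13550 in GFP 4 to 6. In Sox11 1, 2 and 3 they were at 10493, 31295 and 27983, against 9127 and 9604 in Sox11 6 and 7. Summed astrocyte markers split the other way in both groups, lower in numbers 1 to 3. Summed leukocyte markers split in the GFP group only, at 1615 and 2127 normalized counts in GFP 1 and GFP 3 against 497 to 869 in GFP 4 to 6. In the Sox11 group they overlapped, at 1004, 1879 and 1920 for numbers 1 to 3 and at 781 and 1096 for 6 and 7. The part of these markers, of the choroid plexus genes in GFP 3 and of the meningeal genes in the differences between libraries was not tested.

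Within numbers 1 to 3 (2 GFP against 3 Sox11 libraries) 1 member, Iigp1, rose (adjusted p = 0.0499) and none fell, against 3.46% and 2.49% of all tested genes, and the median log2 fold change was 0.28. At an unadjusted limma p below 0.05, 7 members were higher and 2 lower there, against 14.5% and 14.4% of all tested genes. Within numbers 4 to 7 (3 against 2) 14 members rose, against 7.27%, Cmpk2 fell, against 7.91%, and the median was 0.87. The 14 were 6 of the 10 above with Bst2, Ifi27l2a, Ifit1, Ifit3, Igtp, Lgals3bp, Usp18 and Zbp1. Although 35 of the 40 members had the larger log2 fold change within numbers 4 to 7, the difference between the ranges itself passed for none, against 0.00588% of all tested genes (interaction term in limma, lowest adjusted p 0.213), and at an unadjusted p below 0.05 for Gbp2 alone, against 15% of all tested genes. Gbp2 was -0.12 within numbers 1 to 3 and 1.55 within numbers 4 to 7. With the number range as a covariate 15 members rose (12.2% of all tested genes) and 2 fell, Cmpk2 and Irf1 (11.6%). The 15 were the 10 above with Dhx58, Ifi27l2a, Ifit3, Lgals3bp and Usp18. The Sox11 libraries lay above the GFP libraries in 13 members within numbers 1 to 3 (24% of all tested genes) and in 26 within numbers 4 to 7 (24.2%). In 11 members, against 12.6% of all tested genes, they lay above within each range: Cxcl10, Dhx58, Gbp3, Iigp1, Irf7, Irf9, Isg15, Mx1, Oas1a, Oasl2 and Usp18.

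**Figure D4:**
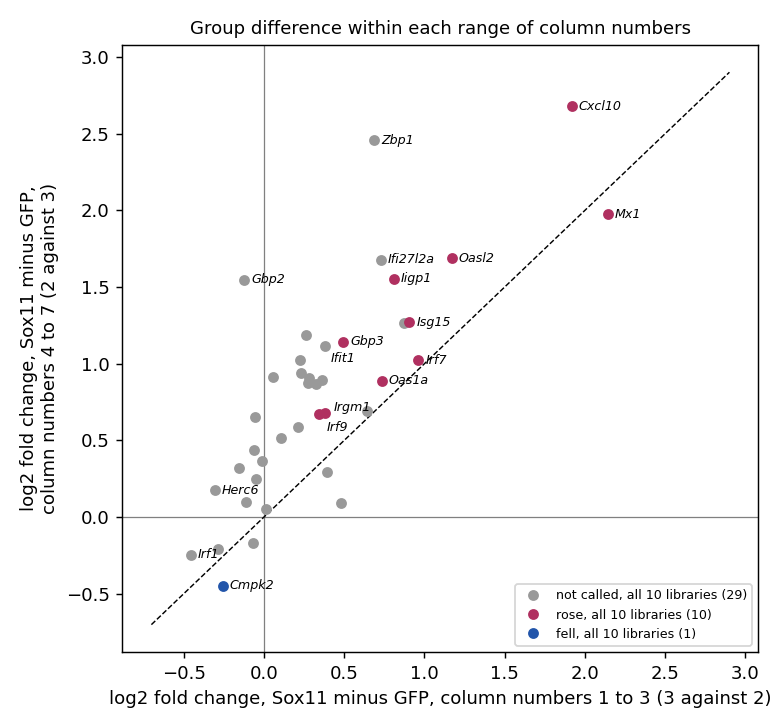
Log2 fold change of the 40 tested members, Sox11 minus GFP, within column numbers 1 to 3 (horizontal) and 4 to 7 (vertical), with the dashed line at equal values. Of the 40 points 35 lie above the line, 28 are above 0 on the horizontal axis and 36 on the vertical axis.

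The number of members called depended on single libraries. It was 21 without GFP 3 (9.23% of all tested genes), and 5 without GFP 6 (8.33%) or without Sox11 3 (7.53%). It was 6 without GFP 4 (7.71%), Sox11 1 (8%) or Sox11 2 (8.53%), 7 without GFP 5 (8.43%), 8 without Sox11 7 (8.03%), 10 without GFP 1 (8.08%) and 12 without Sox11 6 (8.14%). Mx1, Oasl2, Irf9, Iigp1 and Cxcl10 rose and Cmpk2 fell in each of these 10 fits. The share of all tested genes that fell was 8.46%, 9.99%, 6.91%, 7.02% and 7.17% without GFP 1, 3, 4, 5 and 6, and 7.3%, 7.23%, 7.19%, 8.65% and 8.72% without Sox11 1, 2, 3, 6 and 7. Without GFP 3 the 10 members called with all libraries were all called again, and the 11 added were Dhx58, Ifi27l2a, Ifih1, Ifit1, Ifit3, Igtp, Lgals3bp, Rtp4, Trim30a, Usp18 and Zbp1. The groups were then apart, with Sox11 higher, in 11 members, against 9.88% of all tested genes. Without both GFP 3 and Sox11 1, the highest library of each group, 15 members rose (7.54% of all tested genes), Cmpk2 fell (7.8%), and Oas1a and Irgm1 lost the call. On the recovered reads, edgeR called the same 10 members (10.3% of all tested genes) and Cmpk2 (8.96%), and DESeq2 added Igtp and Usp18 (12.3% rose and 12.3% fell).

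**Figure D5:**
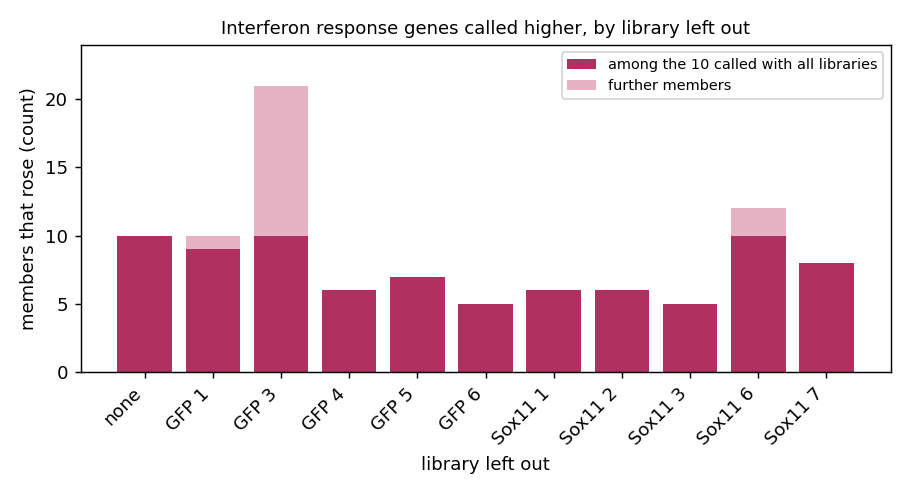
Number of members that rose with all libraries (none) and with each library left out, split into those among the 10 called with all libraries (dark) and further members (light). The bar is highest without GFP 3, at 21, and lowest without GFP 6 or Sox11 3, at 5.

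Genes upstream of the response were examined beside the members. Of 15 ligand genes, interferons and cytokines that induce them, 10 were listed at 0 in all libraries, Ifnb1 among them, and interferon gamma, Ifng, lay between 0 and 3.18 normalized counts. The 3 that could be tested were Il18, Il12a and Il15, and none passed with all libraries by limma, edgeR or DESeq2 (1 higher and 1 lower at an unadjusted limma p below 0.05, against 15.9% and 16.2% of all tested genes). Il12a, a subunit of interleukin 12, went from 30.2 ± 6.16 to 17.4 ± 6.31 normalized counts, just short of the threshold (log2 fold change -0.80, adjusted p = 0.0504). Without GFP 3 or without Sox11 1 it passed.

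Of 22 receptor and signalling genes tested, 1 rose and 1 fell, against 9.65% and 9.36% of all tested genes. Ifnar1, a subunit of the type I receptor, rose by 0.20 on the log2 scale (adjusted p = 0.0111), with 2331 to 2504 normalized counts in the GFP and 2531 to 2917 in the Sox11 libraries. Irf2, a repressor of many interferon-stimulated genes, was at 1249 to 1365 in the GFP and 925 to 1150 in the Sox11 libraries, a log2 fold change of -0.31 (adjusted p = 0.00521). The groups were apart for both genes. Ifnar2, Ifngr1, Ifngr2, Jak1 and Tyk2 had log2 fold changes between -0.13 and 0.11 and did not pass.

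Of 21 nucleic acid sensing genes tested, 2 rose, Traf3 among them, and 1 fell, against the same 9.65% and 9.36%, so the share that rose was near the background. Traf3, an adaptor of the sensing pathways, rose by 0.32 (adjusted p = 0.0388) and lost the call without GFP 1, GFP 3, Sox11 3, Sox11 6 or Sox11 7. The kinase gene Tbk1 fell by 0.22 (adjusted p = 0.00598), with 2942 to 3153 normalized counts in the GFP and 2478 to 2781 in the Sox11 libraries. Ddx58, Mavs, Tmem173, Mb21d1 and Tlr3, genes of RNA and DNA sensing, had log2 fold changes between -0.20 and 0.24 and did not pass.

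Of 78 further interferon-stimulated genes tested, 9 rose, against 9.65% of all tested genes, and 3 fell, against 9.36%, with a median log2 fold change of 0.33. Cxcl9 and Ccl5, like Mx1, reached the minimum mean only through the Sox11 libraries, where they are high, and their calls count accordingly less. In the fit without that minimum (28745 genes) their adjusted p-values were 0.0398 and 0.00307. The chemokine Cxcl9, an interferon gamma target, was at 0.966, 6.91, 6.60, 0 and 0 normalized counts in GFP 1, 3, 4, 5 and 6 and at 38.0, 15.9, 13.7, 12.2 and 238 in Sox11 1, 2, 3, 6 and 7. It rose by 3.60 on the log2 scale (SE 0.91, adjusted p = 0.0197). Ccl5, which attracts T cells, was at 4.07 to 6.76 in the GFP and 10.9 to 55.0 in the Sox11 libraries (log2 fold change 2.00, adjusted p = 0.00408). For both chemokines, as for Cxcl10, Sox11 7 was the highest library and the groups were apart. Gbp6 rose by 0.97 (adjusted p = 0.00985), the DNA-binding protein gene Mndal by 0.83 (adjusted p = 0.0029) and Ogfr by 0.27 (adjusted p = 0.00417). Of the 3 that fell, Nampt, an enzyme of NAD synthesis, had a log2 fold change of -0.29 (adjusted p = 0.00385).

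Markers of cells that could carry the response were read against the same shares over all tested genes, 9.65% rising and 9.36% falling. Of 11 leukocyte markers that could be tested out of 28, 1 rose: Cd52, a surface protein of lymphocytes and myeloid cells, was at 27.5 to 39.6 normalized counts in the GFP and 53.2 to 111 in the Sox11 libraries (adjusted p = 0.00647). The T cell gene Cd8a was too low to test, at 0 to 6.76 against 9.89 to 12.7, and Cd3e was at 0 to 9.21 against 1.22 to 11.6, with 0 in GFP 5 and GFP 6. These T cell genes were picked after their values were seen, out of 17 leukocyte markers that were not tested, and do not stand for the list. The groups were apart for Cd8a, and among all tested genes 8.63% had each Sox11 library above each GFP library. The summed level of the 28 markers overlapped between the groups, at 497 to 2127 normalized counts in the GFP and 781 to 1920 in the Sox11 group. Of 19 microglia markers 4 rose, namely C1qb by 0.33 (adjusted p = 0.00355), C1qc, Tyrobp and Laptm5. P2ry12 and Tmem119, which define resting microglia, did not pass (adjusted p = 0.147 and 0.983), and the sum was 30894 to 37206 against 31299 to 37587.

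Of 15 astrocyte markers 4 rose, against 9.65% of all tested genes, namely Gfap by 0.46 (adjusted p = 0.00178), Aldh1l1, Sox9 and Acsbg1. Their list had sums of 332105 to 414616 in the GFP and 361736 to 447368 in the Sox11 group. No endothelial (14), choroid plexus and ependymal (19) or meningeal (13) marker passed by limma, with 0, 2 and 1 at an unadjusted p below 0.05, all lower in the Sox11 group. The choroid plexus genes Kcne2, Kl and Prlr fell by edgeR, and none of the 3 lists had a call by DESeq2. The choroid plexus list summed to 401202 normalized counts in GFP 3 and to 1246 to 4406 in the other libraries, and edgeR was not run without GFP 3. DESeq2 gave an adjusted p to 16544 of the 17007 genes, so a gene without a call was not always tested. The granule neuron markers, which define the dissected tissue, were abundant in both groups, at sums of 84143 to 120010 and 89838 to 122885 normalized counts over 13 genes. Of these 13 genes 1 rose and 4 fell, against 9.65% and 9.36% of all tested genes. The part of these cell types in the interferon response values was not tested.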

How the data were processed

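Dentate gyrus RNA of 5 GFP and 5 Sox11 mice was used, with a stranded poly(A) library kit, per the labels' protocols. Listed in the submitters' processing notes are STAR 2.5.2a, featureCounts 1.5.1, DESeq2 1.12.3 and GRCm38; the sources used here give neither annotation release nor strand setting. The authors deposited normalized counts, a signal equal to read counts divided by a factor per library. Every value was a whole multiple of 1 read within 0.01 reads (100% of values), and those reads entered edgeR 4.0.16 and DESeq2 1.42.0 as alternatives. Since column numbers and sample titles differ, each column was given a group and no sample. Symbols came from GENCODE M21 (48058 of 48526 identifiers). Genes with a mean of at least 10 (17007) were tested on log2(value + 1) with limma 3.58.1, with its trend and robust settings, at a Benjamini-Hochberg adjusted p below 0.05. Mice were the replicates, and no 2 libraries of the same group agreed within sampling noise. The main limma fit alone was tested on simulated data, in which genes varied independently between libraries. The members varied together between libraries, and the simulation did not include this. Members and lists were chosen with earlier results of these data known. Values per library are given for members past the threshold, the transcription factors and the 5 largest differences that did not pass; Rsad2 and the low T cell genes were added after their values were seen. Fits with a covariate and without GFP 3, or without GFP 3 and Sox11 1, were chosen after seeing the data. Results of some pathway genes outside the member list are not reported here.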

Additional observations from a re-analysis of the deposited data

Results flagged for a closer look

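Each group of 5 libraries was examined for a library that stood apart by Dixon's 95% criterion (critical value 0.71 of the range of the group), in 84 groups on each of 2 scales, where chance gives about 1 in 20. On the log2 scale used for the tests, 2 groups had such a library and no member was among them. Both concern the Sox11 gene, at 1634 normalized counts in GFP 5 (gap 0.858 of the range) and 20434 in the library Sox11 3 (gap 0.772), and both also stood apart on the scale of normalized counts (0.869 and 0.832). On that scale 5 members were added. Ifi27 was at 2177 normalized counts in GFP 3 (gap 0.756) and Ifih1 at 453 in GFP 3 (gap 0.735). Irf7 was at 435 in Sox11 1 (gap 0.721), Oasl2 at 1085 (gap 0.717) and Trim30a at 259 (gap 0.723) in the same library. No member's log2 fold change differed between the number ranges past the threshold (interaction term in limma, lowest adjusted p = 0.213).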

How the results depend on the processing

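No paired analysis was possible because the columns could not be tied to the replicate numbers of the titles, and no source says that equal column numbers mark a pair. With 1 library left out, members that rose numbered 5 to 21 and members that fell 1 to 2, and their median log2 fold change was 0.52 to 0.91. Over the same fits, receptor and signalling genes that rose numbered 1 to 2 (1 fell), sensing genes 1 to 3 (1 fell), further interferon-stimulated genes 6 to 19 (3 fell), ligands 0 (0 to 1 fell) and cell type markers 5 to 9 (2 to 6 fell); the log2 fold change of Sox11 was 2.89 to 3.15. Within numbers 1 to 3, 1 member rose and 0 fell (median 0.28), 0 signalling and 0 further genes rose and 0 fell, and 2 cell type markers rose and 2 fell. Within numbers 4 to 7, 1 ligand rose, 1 fell and 0 sensing genes fell. With the number range as a covariate, 2 members, 2 signalling genes, 2 sensing genes, 1 ligand and 7 cell type markers fell and 4 sensing genes rose. Adding the removal of GFP 3, 19 members, 17 further genes and 4 sensing genes rose, and 2 members and 1 ligand fell. That fit called 11.2% of all tested genes higher and 11% lower, and the shares for the fits named before it are given above. Without GFP 3 and Sox11 1, 15 members and 6 cell type markers rose and 1 ligand fell. At a threshold of 0.01, 1 member, 0 signalling, 1 sensing, 4 further genes and 5 cell type markers rose, and 1 further gene and 2 cell type markers fell. At 0.1, 4 sensing genes and 1 ligand rose and 1 ligand fell. The share of all tested genes was not computed at these thresholds, for limma without trend and robust or for a pseudocount of 8. Counts under those settings therefore have no background beside them. DESeq2 gave 12 members and 4 sensing genes that rose and 2 signalling genes that fell, edgeR 10 members that rose and 7 cell type markers that fell, limma without trend and robust 1 sensing gene that rose and 1 ligand that fell, and a pseudocount of 8 gave 1 ligand that fell. The log2 fold change reversed within numbers 1 to 3 for Oas2 (-0.049), Ifit2 (-0.011), Ifi27 (-0.11), Ifih1 (-0.058), Parp9 (-0.16), Parp14 (-0.054) and Gbp2 (-0.12), with the covariate for Ifi27 (-0.0062), and for Herc6 within numbers 4 to 7 (0.18) and with the covariate and without GFP 3 (0.062). With 1 library left out, it was -0.033 (without GFP 5) to 0.26 (without GFP 3) for Ifi27, -0.22 (without GFP 6) to 0.046 (without GFP 3) for Ifi35 and -0.15 (without GFP 6) to 0.064 (without GFP 3) for Herc6. None of these 9 genes had passed the test, and the cause was not tested. TMM scaling moved the median of all genes by 0.01. Depth limits Mx1, Zbp1 and the genes too low to test.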
